A study of Drosophila melanogaster with 2 samples.

Results

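Translation initiation factors load the first tRNA and the messenger RNA onto the small ribosomal subunit, and aminoacyl-tRNA synthetases attach each amino acid to its tRNA. The genes were chosen by symbol alone: every protein-coding gene of Drosophila melanogaster whose symbol began with eIF and a digit, or was a 3-letter amino acid name followed by RS, with or without the suffix -m for the mitochondrial enzyme. This gave 76 of 13968 protein-coding genes on the main chromosome arms, 16 of them for eIF3 subunits, 28 for other initiation factors, 17 for cytosolic synthetases and 15 for mitochondrial synthetases. The question asked of each gene was whether Ken was recovered at its promoter.

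The data were transcription factor ChIP-seq peaks from whole embryos of the strain ken-GFP, collected from 0 to 24 h, in which Ken was fused to eGFP. All embryos carried that fusion, there was 1 group with 2 biological replicates, and the labels give no driver, sex or number of embryos. The description names an antibody against GFP for the precipitation, whereas the antibody field reads ken. Ken, a protein with a BTB domain and zinc fingers, is best known for repressing transcription. A peak in whole embryos does not tell which cells or which hours it came from, and no RNA was measured, so the values below describe occupancy and not expression.

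A gene was counted as having a peak when a summit of the conservative list of both replicates lay within 1000 bp of any of its transcription start sites (TSSs). That list held 2087 peaks, 2031 of them on the main arms, and 1731 of these lay at promoters by the same distance. The signal of a peak is the authors' deposited value on a scale that is not stated, and it is used here to describe and order peaks within a list. Sequencing depth is not known from the files, and control chromatin was not analysed here. No test was made, because there is 1 group, and the genes of a list are not replicates. Counts are set beside the same count over all protein-coding genes.

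Among the 76 genes, 22 had a peak, 28.9%, where 17.2% of all protein-coding genes had one. The strongest peaks were at 3 genes for eIF3, the largest initiation factor, and the next at the gene for tryptophanyl-tRNA synthetase. By class, the counts were 4 of 16 eIF3 genes (25%), 10 of 28 genes for other initiation factors (35.7%), 6 of 17 for cytosolic synthetases (35.3%) and 2 of 15 for mitochondrial synthetases (13.3%). The order of the synthetase classes turned when a peak was given only to the gene with the nearest TSS. Then 5.88% of cytosolic and 13.3% of mitochondrial synthetase genes had one. The 22 genes had 24 distinct peaks, because eIF6 and AsnRS had 2 each. A candidate peak of any rank lay within 1000 bp of 66 of the 76 genes (86.8%), against 89.3% of all genes. Among genes with such a candidate, 33.3% of these genes and 19.2% of all genes had a peak.

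The median signal of the strongest peak per gene was 185 over the 22 genes and 153 over the 2400 protein-coding genes with a peak, and 11 of the 22 lay above the latter. In the other pooled list the order turned, with 136 over the genes of translation and 144 over all protein-coding genes with a peak. The class medians were 429 for eIF3 genes, 177 for other initiation factors, 181 for cytosolic synthetases and 97.6 for mitochondrial synthetases. These medians rest on 4, 10, 6 and 2 genes, and within the first 3 classes the signals ranged from 72.1 to 499, from 71.7 to 375 and from 92.1 to 396.

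**Figure D1:**
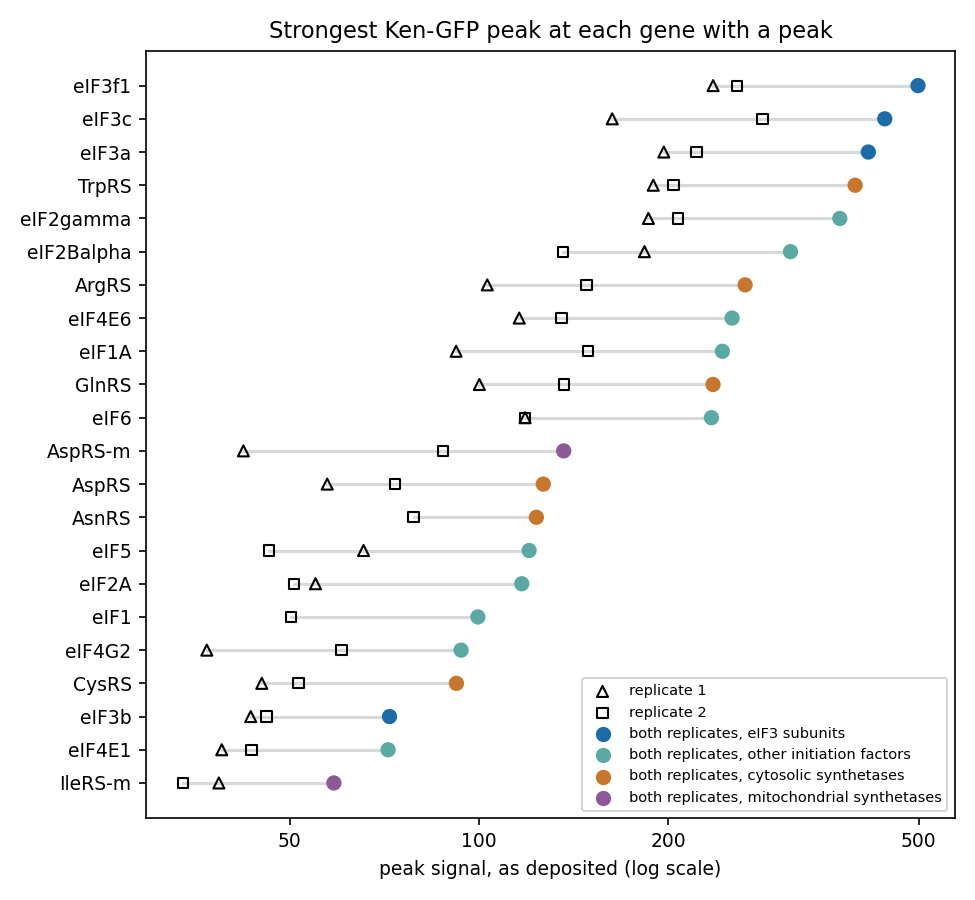
Signal of the strongest conservative peak of each gene with a peak (horizontal, log scale, as deposited), with the signals of replicate 1 and replicate 2 at the same position; colours give the 4 classes. eIF3f1, eIF3c, eIF3a and TrpRS lead, and AsnRS and eIF1 have no value for replicate 1.

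The bases around the 8 strongest peaks for which sequence is shown are given first, because most of these peaks share a short word. They run 5' to 3' on the strand of the named gene, up to 50 bases on either side of the summit and stopping short of annotated untranslated regions, on dm6 coordinates from the release 6 assembly. Capitals mark CGATA on either strand, which reads CGATA or TATCG, and TATCGATA holds it on both strands.
eIF3f1, chr3R:4714183-4714273, minus strand: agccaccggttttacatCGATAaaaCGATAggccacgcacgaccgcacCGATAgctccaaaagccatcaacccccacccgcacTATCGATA
eIF3a, chr3R:4433911-4433964, minus strand: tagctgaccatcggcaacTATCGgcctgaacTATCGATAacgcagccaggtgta
TrpRS, chr3R:9266912-9267012, minus strand: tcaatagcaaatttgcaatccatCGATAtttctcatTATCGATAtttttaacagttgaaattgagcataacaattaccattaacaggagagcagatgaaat
eIF2gamma, chr3R:15263473-15263551, minus strand: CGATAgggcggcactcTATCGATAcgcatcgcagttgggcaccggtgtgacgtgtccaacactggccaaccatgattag
eIF2Balpha, chr3R:29935891-29935977, minus strand: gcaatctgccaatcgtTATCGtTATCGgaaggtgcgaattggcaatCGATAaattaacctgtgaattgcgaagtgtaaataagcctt
ArgRS, chrX:15844300-15844400, minus strand: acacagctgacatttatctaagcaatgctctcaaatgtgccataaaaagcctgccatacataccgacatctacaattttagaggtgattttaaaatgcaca
eIF4E6, chr3R:29027175-29027235, minus strand: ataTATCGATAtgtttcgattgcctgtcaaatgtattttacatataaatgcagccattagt
eIF1A, chr3R:18274487-18274587, plus strand: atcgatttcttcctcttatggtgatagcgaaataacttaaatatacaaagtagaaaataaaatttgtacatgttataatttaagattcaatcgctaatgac
The windows of eIF3f1, eIF3a, TrpRS, eIF2gamma and eIF4E6 hold TATCGATA, and that of eIF2Balpha holds 3 copies of CGATA without it. The windows of ArgRS and eIF1A hold neither within 50 bp of the summit, although both have CGATA within 100 bp. TATCGATA was centred 70 bp from the summit at eIF1A. At ArgRS it was centred 99 bp away, not wholly within 100 bp, and was not counted.

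The eIF3 complex scaffolds the small subunit, and 3 of its 4 peaks were the strongest of the whole set, while the fourth was weak. The gene eIF3f1, for a subunit with an MPN domain, had the highest signal of all 22 genes, 499, with 236 in replicate 1 and 257 in replicate 2. Its peak lay on 3R at 4714113 to 4714353, with an intergenic summit 41 bp upstream of the only TSS, and ranked 31 in the list. The gene eIF3a, for a core subunit, had a signal of 416, with 197 in replicate 1 and 222 in replicate 2. That peak, on 3R at 4433840 to 4434066, was intergenic, ranked 69, and had its summit 66 bp upstream of the eIF3a TSS and 4 bp from that of CG1074 on the opposite strand. The replicates lay close together at both genes, and both peaks held 1 copy of TATCGATA within 100 bp of the summit.

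The core subunit gene eIF3c had a signal of 441, with 163 in replicate 1 and 282 in replicate 2. Its peak on 2R at 17665500 to 17665758 ranked 59, was intergenic, and had its summit 42 bp upstream of the TSS and 568 bp from that of CCHa1-R, the gene of a neuropeptide receptor. It held 1 CGATA and no TATCGATA. The order of these 3 peaks is not stable between replicates, since eIF3f1 was highest in replicate 1 and eIF3c in replicate 2. The fourth eIF3 gene, eIF3b, for another core subunit, had a signal of 72.1, with 43.4 and 45.9 in replicates 1 and 2. Its summit, intergenic on 2R, lay 303 bp upstream of eIF3b and 44 bp from Patronin, which encodes a protein that protects microtubule minus ends.

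The other 12 eIF3 genes had no peak. Of these, eIF3d1, eIF3f2 and eIF3j had no candidate of any rank, and eIF3d2, eIF3e, eIF3g1, eIF3g2, eIF3h, eIF3i, eIF3k and eIF3m had candidates with signals from 25.3 to 47.0. The candidate at eIF3l reached 95.8, with 21.1 in replicate 1 and 63.8 in replicate 2. The paralogs eIF3f1 and eIF3f2 thus stood at opposite ends, while neither member of the pairs eIF3d1 and eIF3d2 or eIF3g1 and eIF3g2 had a peak.

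Among the other initiation factors, the factors of scanning and subunit joining had peaks in 4 of 5 genes, beside 17.2% of all protein-coding genes, but when a peak was given only to the gene with the nearest TSS eIF6 alone had one. eIF1A, which opens the small subunit for scanning, had a signal of 244, with 92.0 in replicate 1 and 149 in replicate 2. Its peak on 3R at 18274332 to 18274741 ranked 361, was intergenic, and had its summit 128 bp upstream of eIF1A and 91 bp from Vps39, a gene of endosome and lysosome fusion. eIF6, which keeps the large subunit from joining too early, had a signal of 234, with 118 in each replicate. Its peak on 2R at 23850234 to 23850393 ranked 397 and had its summit 15 bp upstream of the TSS, inside an intron of ytr. A second peak counted for eIF6, also in an intron of ytr, had a signal of 193. Its summit lay 65 bp from the nearest TSS, which was not that of eIF6.

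The remaining scanning factors had weaker peaks, each nearer to another gene. eIF5, which activates the GTPase of eIF2, had a signal of 120.1, with 65.5 and 46.4 in replicates 1 and 2, at a summit 434 bp upstream and 60 bp from exd, the gene of a homeodomain cofactor. eIF1, which guards start codon choice, had a signal of 99.6 and 50.3 in replicate 2, at a summit 265 bp upstream and 116 bp from RpL28, a ribosomal protein gene. Replicate 1 had no candidate within 200 bp of the eIF1 summit, the nearest being 2430 bp away. eIF5B, the GTPase of subunit joining, was the factor of this role without a peak.

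The heterotrimer eIF2 brings the initiator tRNA, and eIF2B reloads it with GTP. Their genes had peaks in 2 of 8 cases (25%), beside 17.2% of all protein-coding genes, and both were strong. When a peak was given only to the gene with the nearest TSS, neither of these genes had one. eIF2gamma, for the GTP-binding subunit, had a signal of 375, with 186 in replicate 1 and 207 in replicate 2. Its peak on 3R at 15263377 to 15263624 ranked 105, was intergenic, and held 3 copies of TATCGATA within 100 bp of its summit. The summit lay 65 bp upstream of the eIF2gamma TSS, which Su(var)3-9, the gene of a histone methyltransferase, shares, and 29 bp from Set on the opposite strand. eIF2Balpha had a signal of 313, with 183 in replicate 1 and 136 in replicate 2. That peak, on 3R at 29935854 to 29936017, ranked 192 and was intergenic, 53 bp upstream of eIF2Balpha and 37 bp from Vps13B. The genes eIF2alpha, eIF2beta, eIF2Bbeta, eIF2Bgamma, eIF2Bdelta and eIF2Bepsilon had none.

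Of 13 genes for cap binding and unwinding, 3 had a peak (23.1%), beside 17.2% of all protein-coding genes. eIF4E6, a paralog of the cap-binding protein, had a signal of 252, with 116 in replicate 1 and 135 in replicate 2. Its peak on 3R at 29027138 to 29027271 ranked 336, was intergenic, and had its summit 40 bp upstream of eIF4E6 and 22 bp from CG1951. eIF4G2, a paralog of the eIF4G scaffold, had a signal of 93.6, with 36.9 and 60.5 in replicates 1 and 2, in an intron of CG34355. Its summit lay 113 bp upstream of eIF4G2 and equally far from a TSS of CG33111. eIF4E1, the main cap-binding gene, had a signal of 71.7, with 39.0 and 43.5, in its own 5' UTR 79 bp downstream of a TSS. Of the alternative carriers of initiator tRNA, eIF2A had a signal of 117, with 55.0 and 50.8, in its own 5' UTR, and eIF2D had no peak. The genes eIF4B, eIF4E3, eIF4E4, eIF4E5, eIF4E7, eIF4EHP, eIF4G1, eIF4H1 and eIF4H2 had none, and eIF4A is described separately.

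The cytosolic synthetases were led by TrpRS, whose signal was 396 in the pooled list, 189 in replicate 1 and 204 in replicate 2. Its peak on 3R at 9266861 to 9267069 ranked 82, was intergenic, and had its summit 58 bp upstream of TrpRS and 57 bp from Vps16A, a gene of vesicle tethering. ArgRS followed with 265, 103 in replicate 1 and 148 in replicate 2, on X at 15844145 to 15844554. That peak ranked 297, was intergenic, and lay 205 bp upstream of ArgRS and 126 bp from CG8578. GlnRS had a signal of 235, with 100.1 in replicate 1 and 137 in replicate 2, on 3R at 25265750 to 25265851. Its peak ranked 389, was intergenic, 80 bp upstream of GlnRS and 43 bp from RIOK2, the gene of a kinase of ribosome maturation. The log2 ratios of replicate 2 to replicate 1 were 0.11 at TrpRS, 0.52 at ArgRS and 0.45 at GlnRS, where the median over promoter peaks was 0.23.

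The other cytosolic synthetases with a peak were weaker. AspRS had 127, with 57.4 and 73.5 in replicates 1 and 2, in a 5' UTR at a summit 27 bp from a TSS of Nmda1. AsnRS had 123 at a summit 77 bp upstream, with 78.7 in replicate 2 and no candidate of replicate 1 within 200 bp. The nearest of replicate 1 was 250 bp away with 45.0, at the second AsnRS peak, whose pooled signal was 119. The summit of that second peak lay 45 bp from the nearest TSS, which was not that of AsnRS. CysRS had 92.1, with 45.2 and 51.7, at a summit 983 bp upstream and 38 bp from CG30094. No peak was found for AlaRS, GlyRS, HisRS, IleRS, LeuRS, LysRS, MetRS, SerRS, ThrRS, TyrRS or ValRS.

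Of the mitochondrial enzymes, AspRS-m had a signal of 136 at a summit 11 bp upstream of its TSS, with 42.2 in replicate 1 and 87.6 in replicate 2. IleRS-m had 58.8, with 38.6 and 33.8, at a summit 584 bp upstream in a coding exon of ATPsynbetaL, the lowest signal among the 22 genes. Neither of these 2 peaks was in the thresholded list of replicate 1, and only that of AspRS-m was in the list of replicate 2. The other 13 genes, AlaRS-m, ArgRS-m, AsnRS-m, CysRS-m, GluRS-m, LeuRS-m, MetRS-m, PheRS-m, ProRS-m, SerRS-m, TrpRS-m, TyrRS-m and ValRS-m, had none. For 12 amino acids both a cytosolic and a mitochondrial gene met the symbol rule. Both had a peak for aspartate, the cytosolic gene alone for arginine, asparagine, cysteine and tryptophan, the mitochondrial gene alone for isoleucine, and neither for the other 6. This pattern depends on the rule, since with the nearest TSS only AsnRS, AspRS-m and IleRS-m kept a peak among all synthetases.

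The 54 genes without a peak mostly had weak candidates. Their strongest candidates had a median signal of 42.8 in the 44 that had one, and 35.3 over all genes without a peak. After eIF4A at 312 and eIF3l at 95.8, the next were LeuRS-m at 65.1, TyrRS at 63.4 and AlaRS at 60.9. No candidate was present at 10 genes, which were eIF3d1, eIF3f2, eIF3j, eIF2beta, eIF4B, eIF4EHP, eIF4G1, eIF4H1, GlyRS and PheRS-m.

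**Figure D2:**
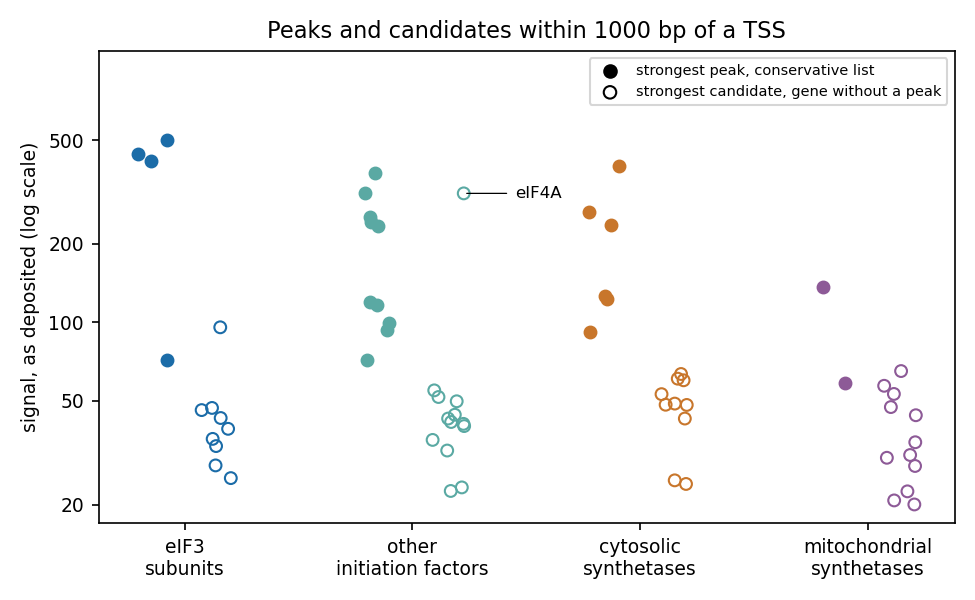
Signal (vertical, log scale, as deposited) of the strongest conservative peak of each gene with a peak (filled) and of the strongest candidate of each gene without one (open), by class. The open circle of eIF4A lies among the filled ones, and the other open circles lie below 100.

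The gene of the RNA helicase eIF4A was counted as without a peak, although its candidate was strong in both replicates. The candidate, on 2L at 5981540 to 5981760, had its summit 128 bp upstream of the TSS in intergenic sequence and a pooled signal of 312. The replicates had 137.5 and 183 at that place. Its −log10 global IDR was 4.69, where 2.001 was the lowest value in the conservative list. Here IDR is the irreproducible discovery rate, which measures how well a peak's rank repeats. None of the 4 thresholded lists held a summit within 200 bp of it. It was 1 of 81 candidates on the main arms that reached the level and were absent from the conservative list. No source used here says why they are absent. With all such candidates counted, a rule added after the data were seen, 23 of the 76 genes (30.3%) and 17.6% of all genes had a peak.

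At 13 of the 22 genes the summit lay between the TSS of the gene and that of a neighbour pointing away from it. The same count over all protein-coding genes with a peak is not given here. A neighbour of this kind, wherever the summit lay, was present at 14 of the 22 (63.6%) and at 67.7% of all protein-coding genes with a peak. A TSS on the opposite strand lay upstream within 1000 bp for 43 of the 76 genes, 56.6%, and for 36.2% of all protein-coding genes. The share was 88.2% for cytosolic synthetases, 15 of 17, and 50% for eIF3 genes, 46.4% for other initiation factors and 46.7% for mitochondrial synthetases. Of the head-to-head genes, 14 of 43 had a peak, 32.6%, and over all head-to-head genes it was 32.2%. Among genes without such a neighbour, 8 of 33 had a peak, 24.2%, where the share over all such genes was 8.69%.

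**Figure D3:**
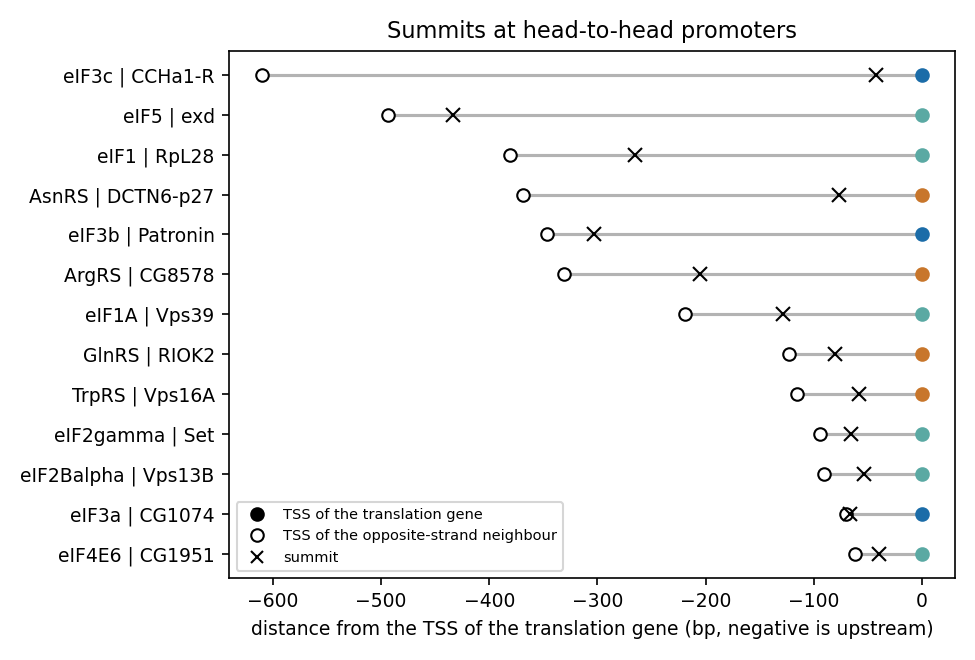
Position of the summit (cross) between the TSS of the translation gene (filled, at 0) and that of its opposite-strand neighbour (open), in bp, for the 13 head-to-head genes whose summit lay between both. The cross lies nearer to the open circle in 11 of the 13, the exceptions being AsnRS and eIF3c.

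At the 14 head-to-head genes with a peak, the distance between the paired TSSs was 38 to 610 bp, with a median of 171 bp. The summit lay between both in 13, AspRS being the exception, where it lay at an inner TSS. At AsnRS and eIF3c the summit was nearer to the translation gene than to the neighbour, while at TrpRS the distances, 58 and 57 bp, were almost equal. Counting every neighbour, another gene's TSS was nearer to the summit in 13 of the 22 genes. The translation gene was nearest for any of its peaks in 9 of 22, 40.9%, against 68.1% over all genes with a peak. When each peak was given only to the gene with the nearest TSS, 9 of 76 genes had one, 11.8%, and the share over all genes was 11.7%. Those 9 were eIF3c, eIF3f1, eIF2A, eIF4E1, eIF4G2, eIF6, AsnRS, AspRS-m and IleRS-m. Genes tied for nearest were all counted, and eIF4G2 was tied with CG33111. The difference between 28.9% and 17.2% was therefore not seen under that rule. A peak between paired TSSs cannot be assigned to either gene from these data.

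**Figure D4:**
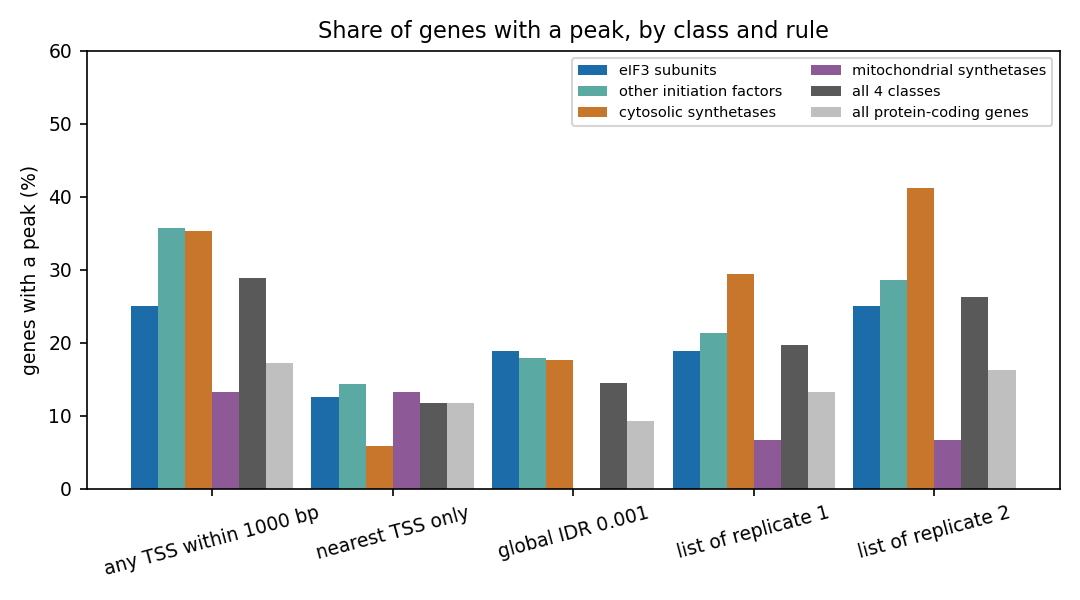
Share of genes with a peak (percent, vertical) for the 4 classes, all 76 genes and all protein-coding genes under several rules for linking a peak to a gene. The 76 genes lie above all protein-coding genes under each rule but the nearest-TSS rule, where the values are 11.8% and 11.7%.

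Other rules moved both shares together. With a window of 500 bp, 20 of the 76 genes had a peak (26.3%), against 15.4% of all genes, and with 200 bp 16 did (21.1%), against 12.8%. Measured from the peak interval in place of the summit, the count was 22 and the share of all genes 17.7%. The other pooled list gave 23 (30.3%) and 18.6%, with eIF3l and IleRS added and eIF3b lost. At a global IDR of 0.001, 11 had a peak (14.5%), with 9.29% of all genes, and these were 3 eIF3 genes, 5 for other factors, 3 for cytosolic synthetases and 0 for mitochondrial ones.

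The 2 replicates differed in how many of these genes they listed. The thresholded list of replicate 1 alone gave 15 of the 76 genes (19.7%), where all genes gave 13.2%, and that of replicate 2 gave 20 (26.3%), where all genes gave 16.3%. Of the 15, 14 were among the 22 and LeuRS-m was not, and of the 20, 18 were among the 22 and eIF3l and IleRS were not. Of the 24 peaks, 15 had a thresholded summit of replicate 1 within 200 bp (62.5%) and 20 one of replicate 2 (83.3%), while over all 1731 promoter peaks the shares were 67.5% and 78.9%. Both replicates listed 15 peaks, and neither listed the peaks of eIF2A, eIF4G2, eIF3b and IleRS-m. The log2 ratio of replicate 2 to replicate 1 had a median of 0.16 with an SD of 0.40 over 22 peaks, from −0.50 at eIF5 to 1.05 at AspRS-m. Over all promoter peaks the median was 0.23 and the SD 0.53. Whether both replicates are on the same scale is not known, so a ratio is read only against that median.

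The word CGATA lay within 100 bp of the summit at all 24 peaks, and at 82.5% of promoter peaks. It lay at 23.7% of the 29360 promoter candidates that did not pass. At 2 or more matches the count was 18 of 24 (75%), against 68.5%. The longer word TATCGATA, which contains CGATA on both strands and so counts as 2 matches, is the element bound by the promoter factor DREF. It lay at 12 of the 24 peaks (50%), at 33.1% of promoter peaks and at 1.09% of the candidates that did not pass. By class it lay at 2 of 4 eIF3 peaks, 7 of 11 of other factors, 3 of 7 of cytosolic synthetases and 0 of 2 of mitochondrial ones. The nearest CGATA was a median of 12.5 bp from the summit, and 19.0 bp over promoter peaks that held it within 200 bp. Within 50 bp of the summit CGATA lay at 17 of the 24 peaks (70.8%) and at 68.2% of all promoter peaks, so the shares were closer there than within 100 bp. Of the promoter peaks with CGATA within 200 bp, 76.6% had it within 50 bp.

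**Figure D5:**
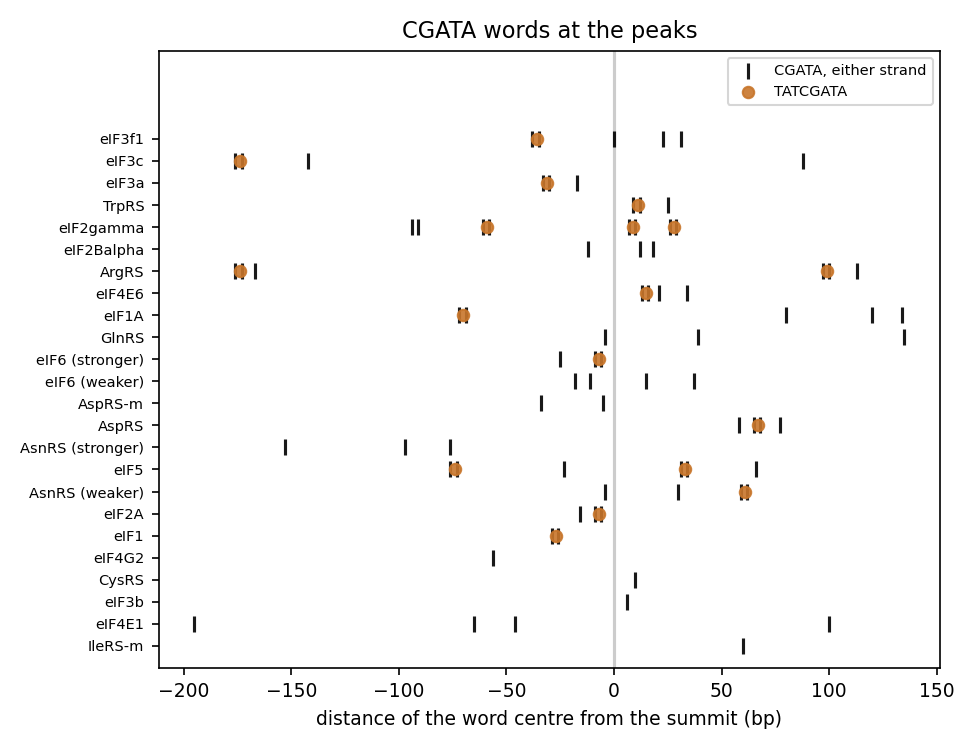
Distance of the centre of each CGATA (bars, either strand) and TATCGATA (circles) from the summit in bp, up to 200 bp on either side, for each of the 24 peaks ordered by signal. Every peak has a bar within 100 bp, and eIF2gamma has 3 circles.

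Other words were rare at these peaks. GGTCACACT, known as Motif 1 and bound by the promoter factor M1BP, lay at 2 of 24 peaks (8.33%), those of GlnRS and AspRS-m, against 5.03% of promoter peaks. CACGTG, the E-box bound by Myc and Max, lay at 2 (8.33%), GlnRS and eIF6, against 3.35%. CAGCTG lay at 4 (16.7%), against 12.9%. These letters were sought on both strands, and a match describes the sequence only. Of the 44 genes with a candidate and no peak, 12 had CGATA within 100 bp of the strongest candidate (27.3%).

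The promoters themselves, from 250 bp before to 50 bp after a TSS, held TATCGATA in 19 of the 76 genes (25%) and in 10.2% of all genes. They held CGATA in 50 genes (65.8%) and in 53.1% of all. Among genes with TATCGATA, 11 of 19 had a peak (57.9%), against 60.1% of all such genes. Without it, 11 of 57 had a peak (19.3%), against 12.3%. The 8 genes with TATCGATA and no peak were eIF2alpha, eIF2Bbeta, eIF3l, eIF4A, eIF4B, AlaRS, IleRS and PheRS-m.

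The summits lay close to the TSSs. The median distance was 78.5 bp over the 22 genes and 81.0 bp over all genes with a peak, and 14 of 22 lay within 100 bp (63.6%), against 55.8%. By gene model, the 24 summits fell between genes in 17 cases, in introns in 3, in a 5' UTR in 3 and in a coding exon in 1, which is 70.8%, 12.5%, 12.5% and 4.17%. Over all promoter peaks these shares were 62.4%, 10.8%, 22.1% and 3.70%. A tRNA gene lay within 500 bp of 0 of the 24 summits and of 1.16% of all promoter peaks.

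Further genes of translation, in lists that the symbol rule leaves out, had peaks in 17 of 45 cases, 37.8%, beside 17.2% of all genes. At 6 of the 17 another gene's TSS was nearer to the summit of the strongest peak (35.3%), where the share over all genes with a peak was 35.1%. Of 7 elongation factor genes 3 had one, with signals of 251 at eEF1gamma, 233 at eEF2, which moves the ribosome along, and 174 at eEF5. Of 5 genes of release and recycling 2 had one, eRF1, which reads stop codons, with 174 and pix, which splits ribosomes, with 170. Of 14 regulators of initiation 6 had one. These were Paip2, an inhibitor of the poly(A)-binding protein, with 422, pAbp, the gene of that protein, with 129, NAT1, a relative of eIF4G, with 289, mxt with 144, mTor, the growth-control kinase, with 136 and crc, the fly ATF4, with 91.2. Thor, the eIF4E-binding protein, had a candidate of 86.2 and no peak.

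Synthetases and partners outside the symbol rule had peaks in 4 of 10 cases, beside 17.2% of all protein-coding genes, GluProRS with 316, AIMP3 with 234, GatC with 200.0 and beta-PheRS with 107. GluProRS charges tRNAs for glutamate and proline with 1 protein, and its signal lay between those of TrpRS and ArgRS. The gene alpha-PheRS, for the partner subunit of beta-PheRS, had no peak. Of 9 mitochondrial translation factors mRF1, a release factor, had a signal of 367 and mEFTs, an elongation factor, had 85.0, and the other 7 had none, which is a share of 22.2%, near that of all protein-coding genes.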

How the data were processed

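The peaks are narrow peak lists from 2 biological replicates of 1 group on dm6, per the labels. The signal of each peak was deposited by the authors without a stated scale or normalization. The score is the authors' deposited IDR score, capped at 1000, and was not used in a result. The −log10 of the global IDR was deposited with the ranked lists, and a threshold of 0.01 was read from these values. No source used here gives the aligner, peak caller or depth. A further input of no stated role went into each thresholded list. In the 2 pooled ranked lists, 16 columns of single inputs have no header and were not used.

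Summits were placed against TSSs of Ensembl release 115 with Python 3.11.15 and pandas 2.3.3, within 1000 bp. The signal of a replicate is that of its nearest candidate summit within 200 bp. Words were sought within 100 bp of summits in the release 6 assembly. The assignment of summits was tested on made-up coordinates. The genes, lists and words were chosen with earlier results of these data known, and the head-to-head and nearest-gene counts over subsets were added after the data were seen. Listed symbols were matched to the annotation in use, and 1 gene absent under its symbol was dropped. Every gene with a peak is named, and the 10 strongest are given in full. Peaks on scaffolds (56) were left out.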

Additional observations from a re-analysis of the deposited data

How the results depend on the processing

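Of the alternatives computed, 83 values stayed close to the main one and 41 moved. A count was held close within 1.5 times, and a median signal within 1 SD of the medians of the 2 replicate lists, a narrow bound. A window of 500 bp left 1 mitochondrial synthetase gene and medians of 235 for the 76 genes, 155 for all protein-coding genes, 235 for cytosolic and 136 for mitochondrial synthetases. A window of 200 bp left 1 mitochondrial synthetase gene and 3 regulators. A global IDR of 0.001 left 11 of the 76 genes, 5 for other initiation factors, 3 for cytosolic and 0 for mitochondrial synthetases, 3 regulators and 1 mitochondrial factor, and its medians were 313 for the 76 genes, 227 for all protein-coding genes, 252 for other factors and 265 for cytosolic synthetases. The nearest-TSS rule left 9 of the 76 genes, 2 for eIF3, 4 for other factors, 1 for cytosolic synthetases, 1 for release and 1 mitochondrial factor. The other pooled list gave medians of 136 for the 76 genes, below the 144 for all protein-coding genes, and 127 for cytosolic synthetases. Within 50 bp of the summit, Motif 1 lay at 1 peak.

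With 1 replicate left out, the counts ranged from 15 to 20 for the 76 genes, 6 to 8 for other factors and 1 to 2 for release factors, with 1 both times for mitochondrial synthetases, LeuRS-m in the list of replicate 1 and AspRS-m in that of replicate 2. The medians then ranged from 116 to 127 for the 76 genes, 83.5 to 88.2 for all protein-coding genes, 197 to 239 for eIF3, 117 to 127 for other factors, 78.7 to 100.1 for cytosolic and 34.96 to 87.6 for mitochondrial synthetases, on the scale of single replicates, which is lower than that of pooled lists. No paired analysis was possible because the series has 1 group. Read depth is unknown, so no counting error stands beside a signal, and a gene without a peak may have one that these lists do not reach.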

Other observations

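A coincidence chosen after the values were seen concerned the neighbours. Of the head-to-head pairs, 3 joined a translation gene to a gene of vesicle trafficking with a Vps symbol, TrpRS with Vps16A, eIF1A with Vps39 and eIF2Balpha with Vps13B. Among all 27 genes with a Vps symbol, 12 had a peak (44.4%), beside 17.2% of all protein-coding genes. The 12 include the 3 neighbours that prompted the count. The 81 candidates that reached the global IDR level without being in the conservative list lay in 47 stretches separated by more than 10 kb. Of these candidates, 5 had a higher signal than the strongest one at eIF4A.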
